A study of Mus musculus with 6 samples.

Results

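The cardiac thin filament was read through 10 genes whose products build or cap it, Actc1, Acta1, Tpm1, Tpm2, Tnnt2, Tnni3, Tnni1, Tnnc1, Tmod1 and Lmod2. Every probe that carried one of these gene symbols and was not a control was taken, which gave 19 probes among 56605 on the array. Of these, 16 were bright enough to be tested. In hearts given NEXN-S437E, the probe of Acta1, the skeletal muscle α-actin gene and a minor actin of the adult heart, was 2.43-fold lower than in hearts given NEXN-WT, whereas the probe of its cardiac counterpart Actc1 overlapped between the groups. Probes of cardiac troponin T, I and C and the leading probe of Tpm1 were 1.35- to 1.69-fold higher. After quantile normalization the increase was smaller on each of these probes, least so on a dim Tnnt2 probe. No thin filament probe passed an adjusted p of 0.05.

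Thin filaments are polymers of actin along which tropomyosin dimers lie end to end, with a troponin complex bound to each tropomyosin. In that complex troponin C binds calcium, troponin I holds the filament in its inhibited state and troponin T ties the complex to tropomyosin. Tropomodulin caps the pointed end of the filament and leiomodin promotes its elongation there. Rodent ventricles switch around birth from slow skeletal to cardiac troponin I, and skeletal α-actin, common in the fetal heart, is a classic marker of the fetal gene program that returns in hypertrophy.

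All 6 hearts came from male Clk4-cKO mice on the C57BL/6J strain, and 3 animals were taken for each group. Clk4-cKO mice carried floxed Clk4 (Clk4 fl/fl) and the α-MHC-MerCreMer transgene, whose tamoxifen-activated Cre is driven by a cardiomyocyte promoter, so other cells of the heart kept Clk4. All were given an AAV9 vector, with the ubiquitous CMV promoter, that carried either wild-type nexilin (NEXN-WT) or nexilin with glutamate in place of serine at a phosphorylation site (NEXN-S437E, a phosphomimic). NEXN-WT was the control, and hearts with intact Clk4, or with no nexilin vector, were not analysed here, so levels say nothing about the effect of the knockout itself. Per the study's methods the vector was injected intravenously into young mice, and ages and times, which the labels do not give, are not stated here. Nexilin binds actin filaments, and the comparison asked how its phosphomimic form changed gene expression in the Clk4-cKO myocardium.

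The arrays lay on 1 slide, with the NEXN-WT animals and NEXN-S437E replicate 1 in its first row and NEXN-S437E replicates 2 and 3 in its other row. Between 41.9% and 47.8% of spots were well above background. NEXN-WT replicate 1 stood apart, differing on average by 0.38 and 0.44 on the log2 scale from the other NEXN-WT arrays, which differed from each other by 0.25. Both groups lacked cardiomyocyte Clk4 by design, and the Clk4 probe read 1.30 ± 0.18 and 1.43 ± 0.23 (SD, n = 3) in NEXN-WT and NEXN-S437E. The 12 markers of working cardiomyocytes were all well above background, so the tissue read as labelled. Every level below is log2 of the processed signal minus the 75th percentile of its array (the percentile itself is 0), and levels of different probes are not compared.

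The probes of the actin pair and of Tnni3 are shown because the results turn on them. Each probe has 60 bases, was placed by the deposited annotation on mouse build mm9 and lies on the minus strand. The Acta1 probe occupied chr8:126416197-126416256 as a single block. The Actc1 probe reached over chr2:113874011-113874934, a span longer than the probe, so it crossed at least 1 intron. The Tnni3 probes, at chr7:4472043-4472102 and chr7:4471129-4472051, overlap end to end and share the 9 bases given in capitals, so they are a partly overlapping pair of readings of 1 region and not independent of each other.
Acta1 A_51_P246854: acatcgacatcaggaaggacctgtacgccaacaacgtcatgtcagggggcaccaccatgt
Actc1 A_51_P149469: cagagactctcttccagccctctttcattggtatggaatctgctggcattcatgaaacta
Tnni3 A_51_P386983: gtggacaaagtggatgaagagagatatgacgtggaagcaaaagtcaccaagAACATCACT
Tnni3 A_55_P2502861: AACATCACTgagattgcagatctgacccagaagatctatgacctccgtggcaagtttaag

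Actins form the backbone of the filament, and of the sarcomeric pair Acta1 was lower while Actc1 passed no threshold. The Acta1 probe read 5.65, 7.01 and 6.57 in NEXN-WT replicates 1 to 3 and 5.36, 4.98 and 5.04 in NEXN-S437E replicates 1 to 3. The groups did not overlap, and NEXN-WT replicate 1 lay nearest to the NEXN-S437E hearts. The mean fell from 6.41 ± 0.69 to 5.13 ± 0.20 (SD, n = 3), a log2 fold change of -1.28 (SE 0.32, 95% interval -2.02 to -0.54, limma adjusted p = 0.146), past the unadjusted threshold of 0.05 used by the study. Without NEXN-WT replicate 1 the change was -1.66 and its adjusted p 0.029, when 0.557% of all tested probes passed an adjusted p of 0.05, and without NEXN-WT replicate 2 it was -0.98 with an adjusted p of 0.217. Over 19 alternatives in processing it stayed negative, between -1.85 and -0.98, with adjusted p from 0.0016 to 0.513. The lowest of these came with array weights, under which 16.6% of all tested probes passed an adjusted p of 0.05. With slide row as a block, where only NEXN-S437E replicate 1 shares a row with the NEXN-WT arrays, it was -1.05 (adjusted p = 0.513) and missed the unadjusted threshold. Fewer cells of a type and less RNA per cell cannot be told apart in these whole-tissue samples. Sarcomeric actins are nearly identical as proteins, and how far other actin transcripts bind this probe was not tested.

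The Actc1 probe, for the main actin of the adult heart, read 8.54, 9.18 and 9.26 in NEXN-WT and 9.23, 9.25 and 9.20 in NEXN-S437E. NEXN-S437E hearts lay within 0.05 of each other and inside the range of the NEXN-WT hearts, of which replicate 1 was the lowest. The log2 fold change was 0.23 (SE 0.21, 95% interval -0.25 to 0.71, limma adjusted p = 0.563). Leaving out NEXN-WT replicate 1 made it 0.0054, leaving out replicate 3 of that group made it 0.37, and it turned to -0.18 after quantile normalization and to -0.17 in the study's normalized values, so no direction was held. Among actins of other cell types, Acta2 of smooth muscle changed by 0.04 (SE 0.31) and the cytoplasmic Actb by 0.14 (SE 0.17), and both values turned negative after quantile normalization (-0.19 and -0.23). Without NEXN-WT replicate 1 Acta2 gave -0.26 and Actb 0.030.

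**Figure D1:**
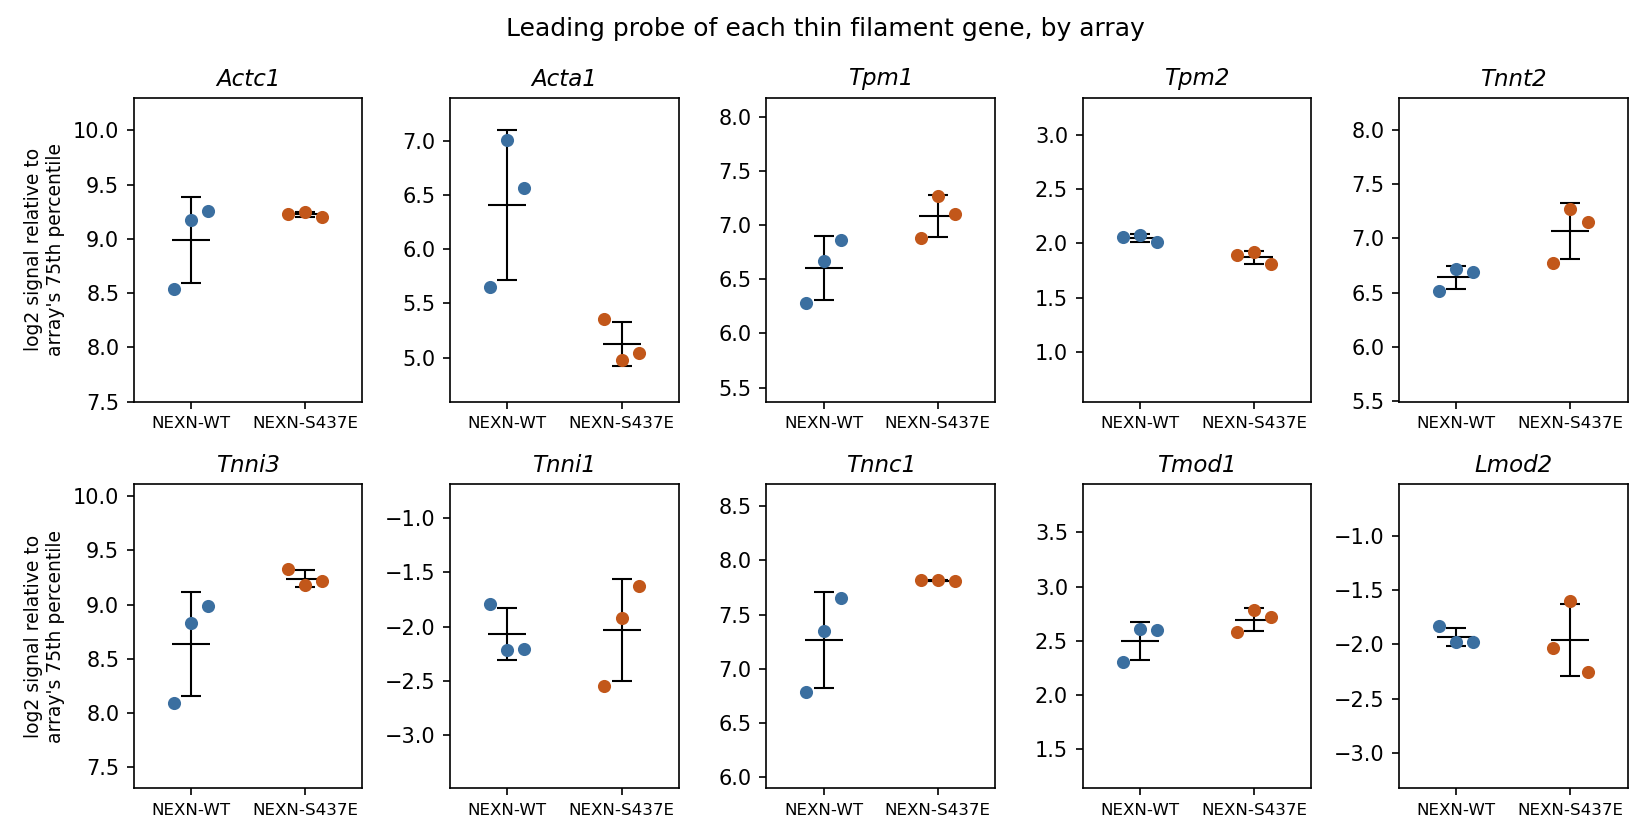
Level of the leading probe (the tested probe with the highest mean) of each of the 10 genes, as log2 signal relative to the 75th percentile of the array, with 1 point per heart (n = 3 a group), the mean as a horizontal bar and the SD as error bars. All panels span the same number of log2 units. Acta1 (6.41 to 5.13) and Tpm2 (2.05 to 1.87) were lower without overlap, while Tpm1, Tnnt2, Tnni3 and Tnnc1 were higher without overlap and Actc1, Tnni1, Tmod1 and Lmod2 overlapped.

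The difference between Acta1 and Actc1 within each array does not depend on a single scaling factor per array. It was -2.88, -2.17 and -2.70 in NEXN-WT and -3.87, -4.27 and -4.16 in NEXN-S437E. Every NEXN-S437E heart lay below every NEXN-WT heart, and the change of -1.51 on the log2 scale corresponds to a 2.86-fold lower ratio of Acta1 to Actc1 signal. The exact two-sided permutation test gave p = 0.1, the smallest that 3 against 3 animals allows, and 0.2 after adjustment over the 4 paralog pairs compared. The pairs were chosen with earlier results of these data known, so the permutation p-values of all 4 are descriptive. Under 12 alternatives the change ran from -1.66 to -1.31, and it was -1.31 with quantile normalization, which shifts bright and dim probes by different amounts.

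The promoters of this pair are shown because the ratio of their signals differed without overlap. The 250 bases before the annotated start come from RefSeq (build GRCm38.p6), both on the minus strand, at chr8:123894776-123895025 for Acta1 and chr2:114052876-114053125 for Actc1, with CArG boxes, the letters bound by serum response factor, in capitals.
Acta1 promoter: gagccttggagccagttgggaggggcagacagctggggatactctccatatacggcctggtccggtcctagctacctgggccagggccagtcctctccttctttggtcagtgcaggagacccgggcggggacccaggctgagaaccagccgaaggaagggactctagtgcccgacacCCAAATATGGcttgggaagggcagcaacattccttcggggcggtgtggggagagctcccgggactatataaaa
Actc1 promoter: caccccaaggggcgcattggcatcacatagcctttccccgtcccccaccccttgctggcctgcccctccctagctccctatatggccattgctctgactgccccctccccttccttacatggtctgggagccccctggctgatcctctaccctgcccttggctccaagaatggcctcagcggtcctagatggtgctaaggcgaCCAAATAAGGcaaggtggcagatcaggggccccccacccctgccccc
The CArG box of Acta1 lies 73 to 64 bases before the start and that of Actc1 47 to 38 bases before it. Read on both strands, a CArG box stood in 1.47% of 32851 promoter windows of this length and, among the 10 thin filament genes, in Acta1 and Actc1. The MCAT core CATTCC or its complement stood in 12.64% of all windows and in those of Acta1, Tnnt2, Tnnc1, Tpm1 and Tmod1, and TATAAA or its complement in 12.37% of all windows and in that of Acta1. The matches share no base with one another. These are matches of letters and say nothing of binding in these hearts.

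**Figure D2:**
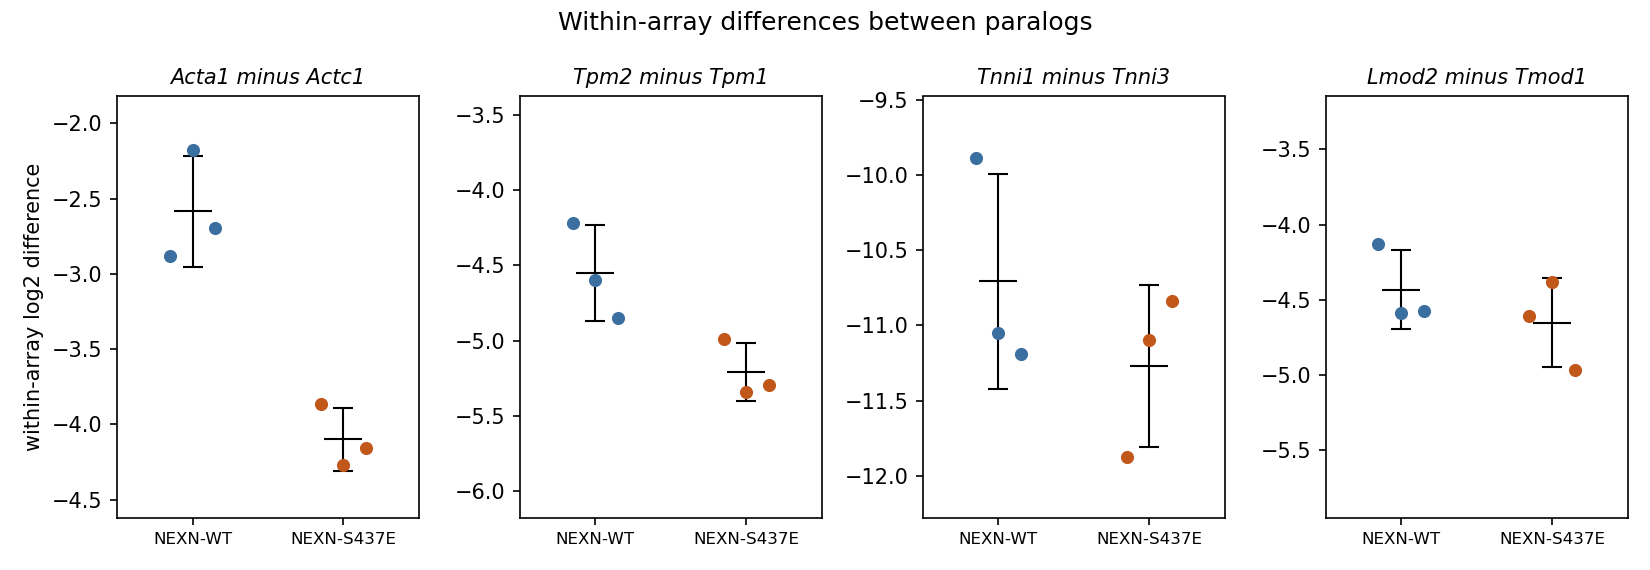
Log2 difference between the leading probes of paralogous genes within each array, with 1 point per heart (n = 3 a group), the mean as a horizontal bar and the SD as error bars. Acta1 minus Actc1 and Tpm2 minus Tpm1 were lower in every NEXN-S437E heart than in every NEXN-WT heart, and the other pairs overlapped.

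Tropomyosin sets which actin sites the myosin heads can reach. The leading Tpm1 probe, for the main cardiac tropomyosin gene, read 6.28, 6.67 and 6.86 in NEXN-WT and 6.88, 7.26 and 7.10 in NEXN-S437E. The groups did not overlap, though the highest NEXN-WT heart and the lowest NEXN-S437E heart nearly touched, and the log2 fold change was 0.48 (SE 0.19, 95% interval 0.03 to 0.93, limma adjusted p = 0.267). It was 0.32 without NEXN-WT replicate 1 (adjusted p = 0.440) and 0.20 after quantile normalization (adjusted p = 0.541), and missed the unadjusted threshold in both. The Tpm1 gene makes many isoforms, and its other probes did not follow the leading one. A_55_P2187053 changed by -0.11 (SE 0.17) and A_65_P17289 by 0.14 (SE 0.38), both with overlapping groups, and A_55_P2078680, well above background in 2 NEXN-WT hearts and 1 NEXN-S437E heart, was not tested. Which Tpm1 isoforms these probes read was not determined.

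Tpm2, the β-tropomyosin gene of skeletal muscle and of the developing rodent heart, read 2.06, 2.08 and 2.01 in NEXN-WT and 1.89, 1.92 and 1.81 in NEXN-S437E on its leading probe. All NEXN-S437E hearts were below all NEXN-WT hearts, yet the difference of -0.18 (SE 0.13) missed the unadjusted threshold (limma adjusted p = 0.497). It passed that threshold by the methods' t-test and with array weights, under which it was -0.22. The other Tpm2 probe gave -0.26 (SE 0.19, adjusted p = 0.497) with overlapping groups, and -0.59 with array weights (adjusted p = 0.027). With normexp background correction it gave 0.0081. Tpm2 minus Tpm1 within arrays was -4.22, -4.60 and -4.85 in NEXN-WT and -4.99, -5.34 and -5.29 in NEXN-S437E, again without overlap. Its change was -0.65 (exact permutation p = 0.1, adjusted over pairs 0.2), and -0.80 to -0.44 under 12 alternatives. The value was -0.44 after quantile normalization and in the study's normalized values. The columns of the latter are identical when sorted, as that method makes them, so these are not independent checks.

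The 3 cardiac troponin subunits were all higher in NEXN-S437E hearts. Tnnc1, the calcium-binding subunit of heart and slow muscle, read 6.79, 7.35 and 7.66 in NEXN-WT and 7.82, 7.82 and 7.81 in NEXN-S437E. The NEXN-S437E hearts were nearly equal and above all NEXN-WT hearts, which were spread over almost a log2 unit with replicate 1 the lowest. The log2 fold change was 0.55 (SE 0.22, limma adjusted p = 0.265), 0.31 without NEXN-WT replicate 1 (adjusted p = 0.388) and 0.24 after quantile normalization (adjusted p = 0.487). It passed the unadjusted threshold of 0.05 in the first of these fits and missed it in the other two.

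Tnni3, cardiac troponin I, was read by the overlapping probes shown above. The leading one read 8.09, 8.84 and 8.99 in NEXN-WT and 9.33, 9.18 and 9.22 in NEXN-S437E, and the other read 5.68, 5.90 and 6.01 against 6.29, 6.56 and 6.47. Neither probe overlapped between groups. Their log2 fold changes were 0.60 (SE 0.24, limma adjusted p = 0.259) and 0.57 (SE 0.16, limma adjusted p = 0.163), both past the unadjusted threshold. In the study's own normalized values these changes were 0.20 (limma adjusted p = 0.543) and 0.34 (limma adjusted p = 0.291). The groups still did not overlap there on either probe, whereas the leading probes of Tnnc1, Tnnt2 and Tpm1 overlapped. On the leading Tnni3 probe they nearly touched, at 16.30 in the highest NEXN-WT heart and 16.34 in the lowest NEXN-S437E heart. Without NEXN-WT replicate 1 the leading probe gave 0.33.

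Tnnt2, cardiac troponin T, had 3 probes that differed widely in brightness. The leading probe read 6.52, 6.72 and 6.69 in NEXN-WT and 6.78, 7.27 and 7.15 in NEXN-S437E, all NEXN-S437E hearts being higher, with a log2 fold change of 0.43 (SE 0.17, limma adjusted p = 0.265). That change was 0.16 after quantile normalization (adjusted p = 0.639) and 0.14 with slide row as a block. The other tested probe, A_55_P2715371 at chr1:137736237-137736296 (mm9), is tied by the deposited annotation to an Ensembl transcript alone and has a stop codon in all 3 forward reading frames. It read 0.82, 1.74 and 1.01 in NEXN-WT and 1.99, 1.93 and 1.92 in NEXN-S437E, again without overlap. Its log2 fold change of 0.76 (SE 0.24, limma adjusted p = 0.1996) was the highest of all thin filament probes tested, and unlike that of the leading probe it moved little with quantile normalization, to 0.71 (adjusted p = 0.233). With array weights it was 0.31, and there and by the methods' t-test it missed the unadjusted threshold. The remaining Tnnt2 probe, also tied to an Ensembl transcript alone, reached a level well above background in no heart and was not tested.

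Tnni1, the slow skeletal troponin I of the fetal heart, stayed low. Its leading probe read -1.79, -2.21 and -2.20 in NEXN-WT and -2.55, -1.92 and -1.63 in NEXN-S437E, with the highest and the lowest reading both in the NEXN-S437E group. The log2 fold change was 0.04 (SE 0.25, 95% interval -0.54 to 0.62, limma adjusted p = 0.947) and changed sign with the processing. The other Tnni1 probe rose above background on no array and was not tested. Tnni1 minus Tnni3 within arrays differed between groups by -0.56 (exact permutation p = 0.5), with overlap, and by -0.15 without NEXN-WT replicate 1, -0.26 without NEXN-S437E replicate 1 and -0.17 after quantile normalization.

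The genes of the pointed-end proteins passed no threshold. The Tmod1 probes, for tropomodulin 1, gave log2 fold changes of 0.19 (SE 0.15, limma adjusted p = 0.522) and 0.25 (SE 0.20, limma adjusted p = 0.530). Without NEXN-WT replicate 1 the leading probe gave 0.091. On the leading one NEXN-WT hearts read 2.30, 2.61 and 2.59 and NEXN-S437E hearts 2.58, 2.79 and 2.72, so the groups overlapped. The Lmod2 probe, for the cardiac leiomodin, read -1.83, -1.98 and -1.98 against -2.03, -1.60 and -2.25, a change of -0.03 (SE 0.19, 95% interval -0.47 to 0.41). Lmod2 minus Tmod1 differed by -0.22 (exact permutation p = 0.4), and by -0.062 without NEXN-S437E replicate 3, -0.070 without NEXN-WT replicate 1 and -0.040 with normexp background correction. A p above the threshold does not show that these genes were equal in both groups, and the intervals admit changes of up to 0.71 for Tmod1 and 0.47 in size for Lmod2.

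**Figure D3:**
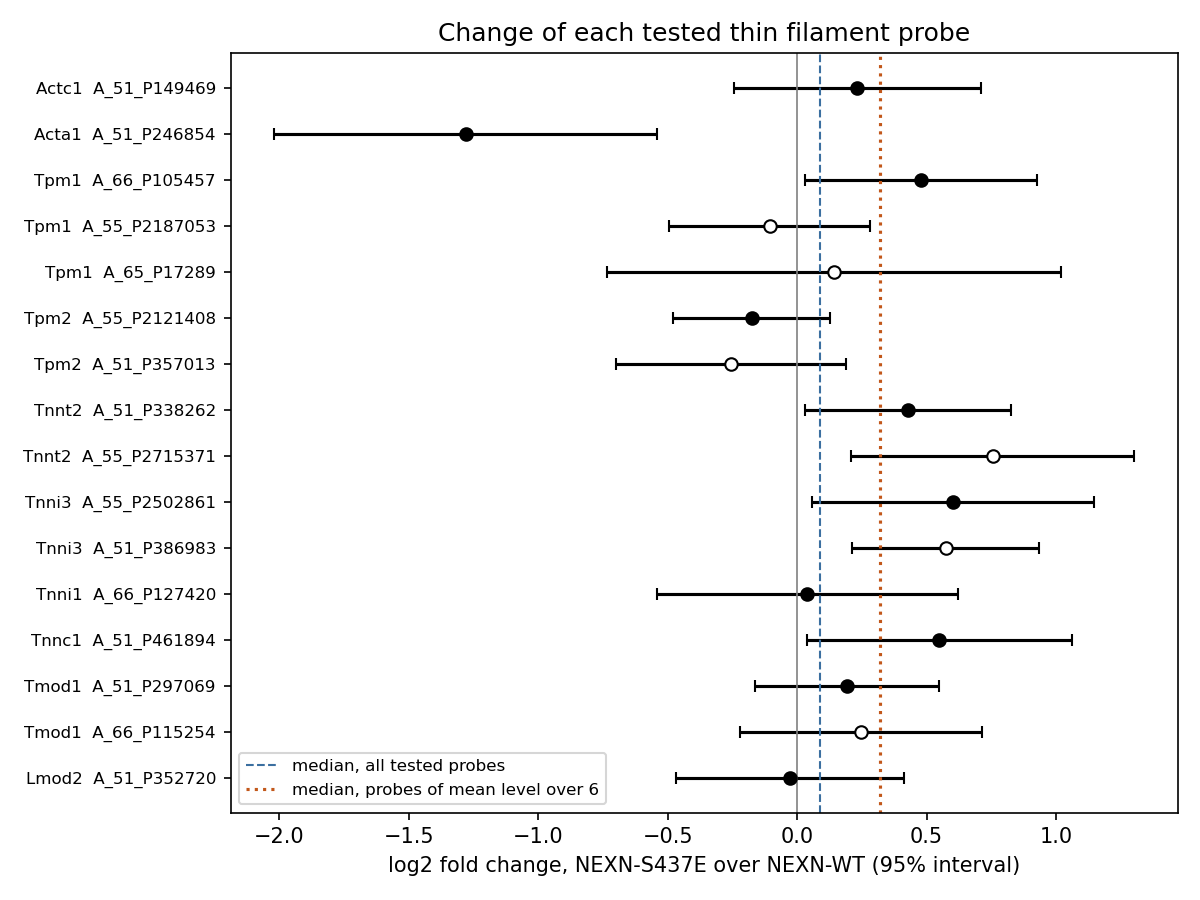
Log2 fold change (NEXN-S437E over NEXN-WT) of the 16 tested thin filament probes with 95% intervals from limma, filled points marking the leading probe of each gene. Dashed and dotted lines give the median change of all 22998 tested probes (0.09) and of the 898 tested probes with a mean level over 6 (0.32). The Acta1 interval, from -2.02 to -0.54, lies wholly below 0, and those of Tnni3, Tnnt2, Tnnc1 and the leading Tpm1 probe lie just above it.

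Counted together, 0 of the 16 tested probes passed an adjusted p of 0.05 in limma, where 0.161% of all 22998 tested probes did. At an unadjusted p of 0.05, 6 probes were higher and 1 was lower, against 10.5% and 6.7% of all tested probes. Of the 16, 1 probe (Acta1) passed both a 2-fold change and that p, a rule met by 2.52% of all tested probes and, in the lower direction, by 1.78%. Groups did not overlap for 6 probes that were higher and for 2 that were lower, against 18.7% and 9.17% of all. In the study's normalized values 3 probes were higher without overlap (both of Tnni3 and the dimmer Tnnt2 probe) and 2 lower, against 13.3% and 11.7% of all. The median change was 0.21 for the 16 probes and 0.09 for all.

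These increases sat on a trend with brightness. On the scale used here, the median change of all tested probes rose from 0.03 for probes with a mean level under 0 to 0.32 for those over 6. The median level of those bright probes was 6.65, 6.89 and 7.00 in NEXN-WT and 7.13, 7.14 and 7.13 in NEXN-S437E, lowest in NEXN-WT replicate 1. The probes of Actc1, Tnni3, Tnnc1 and the leading ones of Tnnt2 and Tpm1 all lie in that range. Among its 898 probes, 26.7% were higher at an unadjusted p of 0.05 and 54.1% were higher without overlap, so the troponin and Tpm1 increases of 0.43 to 0.60 belong to a large class. After quantile normalization, where the median of the bright probes was 0.03, the leading probes of Tnni3, Tnnc1, Tnnt2 and Tpm1 gave 0.16 to 0.24 and none of them passed an unadjusted p of 0.05. The shorter-span Tnni3 probe (0.34) and the dimmer Tnnt2 probe (0.71) still did, when 7.67% of all tested probes were higher and 8.13% lower at that p. Acta1 went further down, from -1.28 to -1.49, and passed it too. How much of the trend is biological was not tested.

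**Figure D4:**
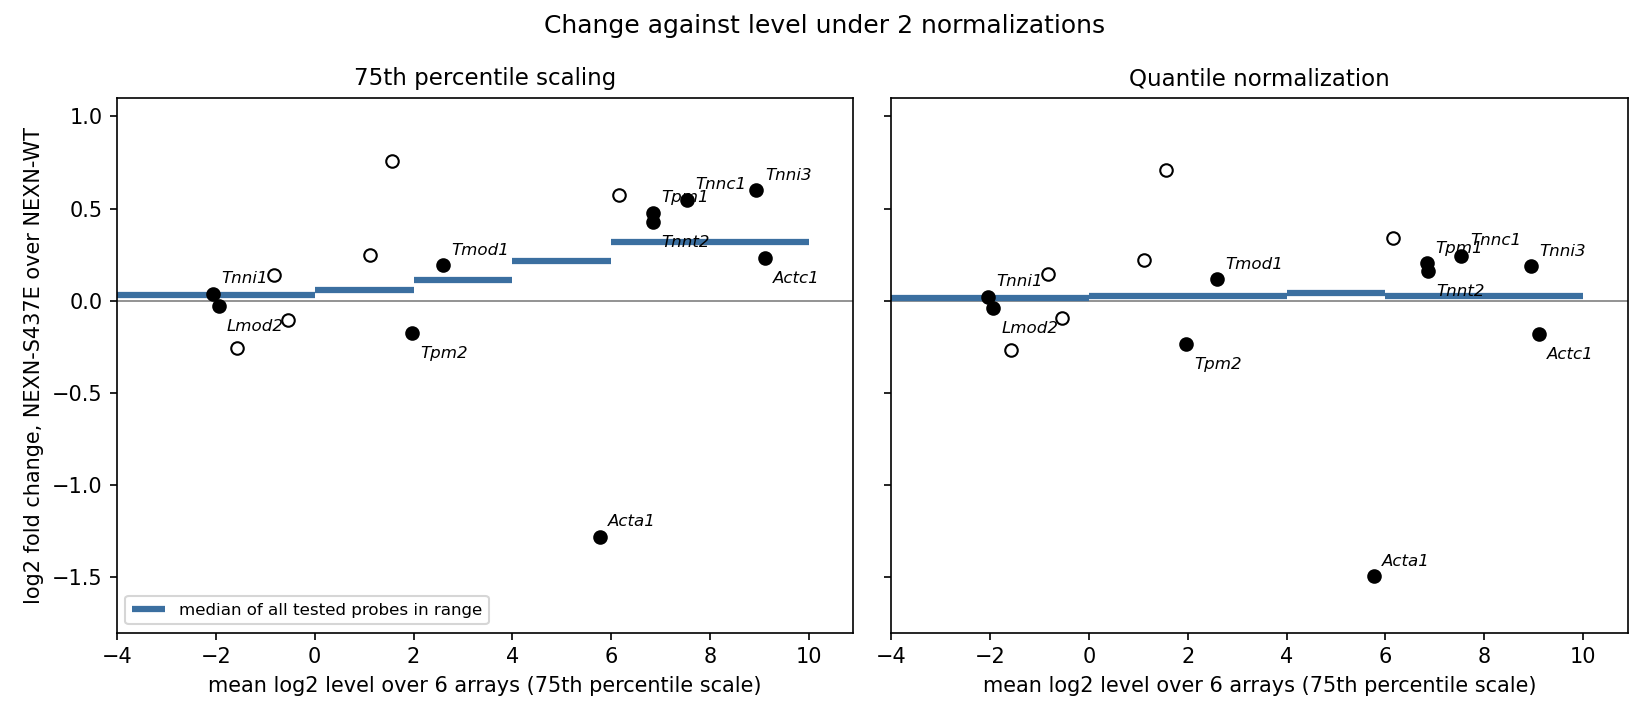
Log2 fold change of the 16 tested thin filament probes against their mean log2 level over 6 arrays, under the scaling to the 75th percentile (left) and after quantile normalization (right), filled points marking leading probes. Horizontal segments are medians of all tested probes in 5 ranges of level. They climb to 0.32 on the left and lie at 0.02 to 0.04 on the right, where the bright members drop with them while Acta1 stays far below.

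**Figure D5:**
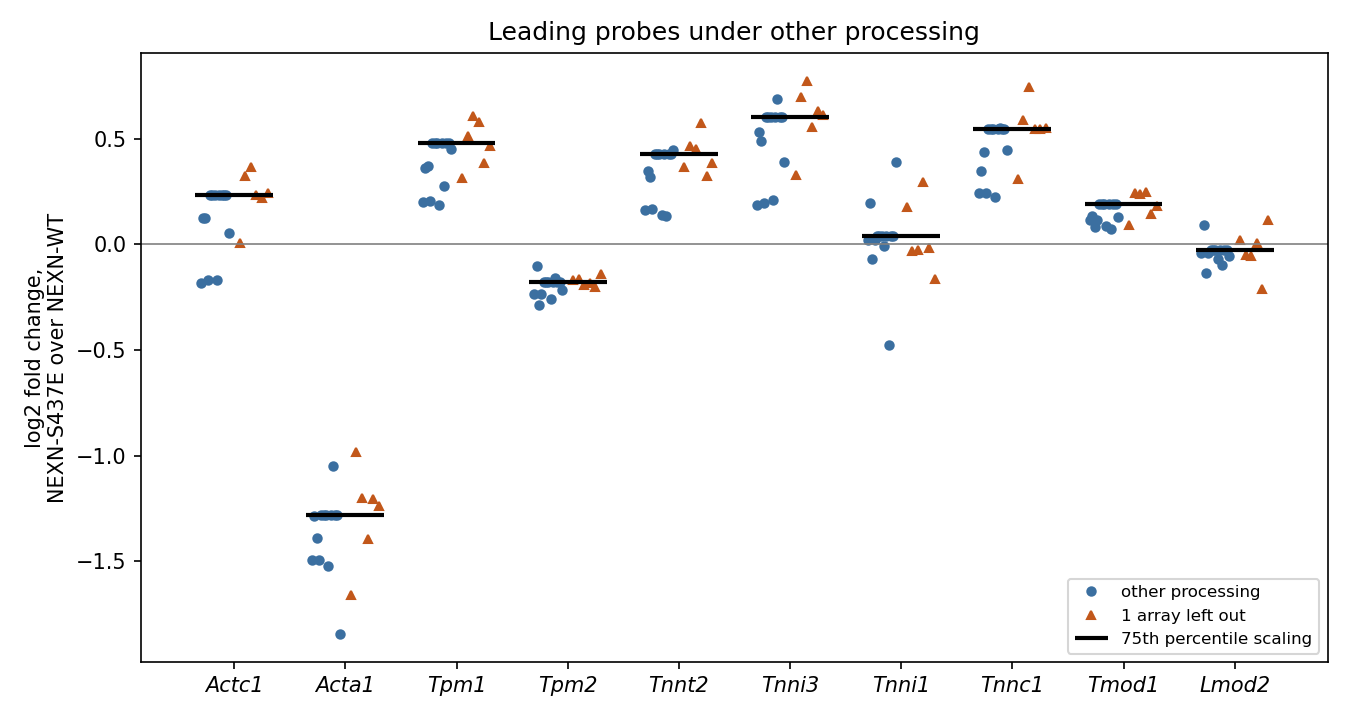
Log2 fold change of each gene's leading probe under scaling to the 75th percentile (black bars), under other processing (circles) and with 1 array left out (triangles). Acta1 stays between -1.85 and -0.98, the leading probes of Tpm1, Tnnt2, Tnni3 and Tnnc1 stay positive, and Actc1, Tnni1 and Lmod2 cross 0.

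Other genes of the filament were read as a pair of lists. Of 15 thin filament paralogs of skeletal, smooth or non-muscle type, 13 were tested, and 3 were higher and 1 lower at an unadjusted p of 0.05, against 10.5% and 6.7% of all tested probes, with a median change of 0.12 that turned to -0.10 after quantile normalization. The highest was Tmod4, the skeletal muscle tropomodulin, at 0.97 (SE 0.33, limma adjusted p = 0.221), and at 0.60 without NEXN-WT replicate 1. The lowest was fast skeletal troponin T, Tnnt3, well above background in all NEXN-WT hearts and in no NEXN-S437E heart. It thus met the filter only in NEXN-WT, and its change as read was -1.15 (SE 0.41, limma adjusted p = 0.231). Setting each NEXN-S437E reading no lower than the dimmest probe well above background on its array made it at least 1.64-fold lower, a bound that was not tested. Without NEXN-WT replicate 1 that bound was 1.21-fold. Of 20 genes of actin filament assembly and anchoring, among them Nexn itself, 19 were tested and 0 passed an unadjusted p of 0.05 in either direction in limma. Their median change was 0.15, and the extremes were the Z-disc gene Ldb3 at 0.44 (SE 0.26) and the actin-binding Xirp2 at -0.40 (SE 0.32). Without NEXN-WT replicate 1 these values were 0.071, 0.13 and -0.073, and after quantile normalization the median was 0.025, with 10 genes higher and 9 lower in sign. The leading Nexn probe read 3.48 ± 0.31 and 3.50 ± 0.36 (SD, n = 3), and whether it reads the vector's transcript was not determined.

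Markers of the heart's cells are given beside these values, since their part in the thin filament results was not tested. All 12 markers of working cardiomyocytes were higher in sign in NEXN-S437E, 6 of them at an unadjusted p of 0.05, where 10.5% of all tested probes and 26.7% of those with a mean level over 6 were higher, with a median of 0.42. After quantile normalization 9 of them were higher and 3 lower in sign, 0 passed that p in limma and the median was 0.15. Without NEXN-WT replicate 1 the median of these markers was 0.28. Their mean level ran from 7.06 to 7.43 in NEXN-WT and from 7.65 to 7.77 in NEXN-S437E. Beside the median of 0.42, the leading probes of the cardiac troponins and Tpm1 changed by 0.43 to 0.60. Without NEXN-WT replicate 1 they changed by 0.31 to 0.37. Of the hypertrophy markers, 3 of 4 were lower at that p (6.7% of all tested probes were), with Nppa, the atrial natriuretic peptide gene, at -1.39 (SE 0.17, limma adjusted p = 0.025) and Myh7, the fetal β-myosin gene of the rodent heart, at -2.33 (SE 0.38, limma adjusted p = 0.082), while Nppb gave 0.04, which turned to -0.25 after quantile normalization and to -0.07 without NEXN-WT replicate 1. By qPCR, the study reported that NEXN-S437E, and not NEXN-WT, reversed the rise of both Nppa and Nppb in Clk4-cKO hearts. Of the atrial markers both that were tested, Myl4 (-0.62, SE 0.22) and Nppa, were lower, and Myl7, Sln and Bmp10 were not well above background on all arrays of either group.

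Markers of fibroblasts and lymphocytes were lower in NEXN-S437E. All 8 fibroblast markers were lower in sign, 6 at an unadjusted p of 0.05, where 6.7% of all tested probes were lower and 10.5% higher, and their mean level ran from 4.92 to 5.85 in NEXN-WT and from 4.02 to 4.15 in NEXN-S437E. All 4 lymphocyte markers tested were lower at that p, with a mean level of -1.10 to -0.39 against -3.05 to -2.65. Of these, Cd3g was well above background in 3 NEXN-WT hearts and 0 NEXN-S437E hearts, and so met the filter only in NEXN-WT. Of the fast or mature skeletal muscle markers 6 of 10 were tested, 1 being higher and 1 lower at that p. Their mean level was -1.72 to -1.42 against -1.69 to -1.28, and Myh1, Myh2, Actn3 and Tnnc2 were not bright enough. The higher, Myh4, was well above background in 2 NEXN-WT and 3 NEXN-S437E hearts, and the lower, Tnnt3, in 3 and 0. Each thus met the filter only in the group where it was higher, so these calls are no separate evidence of a change. Smooth muscle (6 tested, level 4.01 to 4.52 against 4.00 to 4.53), endothelial (5 tested, 3.10 to 3.58 against 3.36 to 3.57), macrophage (6 tested, 3.51 to 4.11 against 3.68 to 3.72) and red cell markers (3 tested, 1.86 to 3.45 against 1.57 to 4.91) held 0 genes past an unadjusted p of 0.05 in limma.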

How the data were processed

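Total RNA of 6 hearts was labelled with Cy3 and hybridised to 1-colour mouse expression arrays, which the authors scanned and read with Agilent Feature Extraction 10.7.1.1 per the labels. The authors deposited each array's processed signal intensity (background-corrected by that software) and a log2 table normalized by a method not given in the sources used here (sorted, its 6 columns are identical). Quantile normalization leaves columns like that too, so the deposited log2 values and that alternative are not independent of each other. The main values were log2 of the processed signal intensity minus each array's 75th percentile over spots that are not controls. Outlier spots were dropped and replicate spots averaged. No thin filament spot was an outlier or saturated, and the number of arrays limits the precision.

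Probes entered the test if every array of 1 group or of both showed them well above background (22998 probes). NEXN-S437E was compared with NEXN-WT with limma 3.58.1 in R 4.3.3 (lmFit, eBayes), with Benjamini-Hochberg adjustment over all tested probes. Thresholds were an adjusted p of 0.05, an unadjusted p of 0.05, and a 2-fold change with the latter. Each gene is read by its leading probe, the tested probe of highest mean level, with all others beside it. Paralog pairs were compared with an exact two-sided permutation test. The pairs, gene lists and members were chosen with earlier results of these data known. From the 2 pathway lists, genes past the 2-fold threshold and the extremes of each list are named. Acta2, Actb and the cell markers Nppa, Myh7, Nppb and Myl4 were named after their values were seen. The 3 samples of a group are separate animals per the labels. On simulated data, limma at an adjusted p of 0.05 recovered 40.4% of probes changed by 1 on the log2 scale and 84.9% of those changed by 2. Alternatives were the deposited log2 values, normexp with an offset of 50, quantile normalization, a percentile set by detected probes, other filters, the methods' t-test, slide row and replicate number as blocks, an intensity trend, array weights and each array left out. Cyclic loess normalization was added after seeing the data. Probes were not placed in exons, as mm9 gene models were not used here. Sequences came from the deposited table and RefSeq, whose promoter windows matched all 10 genes. Figures were drawn with Python 3.11.15 and matplotlib 3.10.9.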

Additional observations from a re-analysis of the deposited data

How the results depend on the processing

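Values below come from arrays of 3 animals a group, and simulated 2-fold changes were recovered in 40.4% of cases at an adjusted p of 0.05. The number of thin filament probes past an adjusted p of 0.05 was 0 in limma (7 at an unadjusted p of 0.05), 6 with array weights, when 16.6% of all tested probes passed, and 0 to 1 with an array left out, the 1 being Acta1 without NEXN-WT replicate 1, when 0.557% of all did. The number past 2-fold with an unadjusted p of 0.05 was 1, 2 with no filter on dim probes and 0 with slide row as a block. With an array left out it was 1 each time, but without NEXN-WT replicate 2 it was the Tnnt2 probe A_55_P2715371 (1.03) in place of Acta1 (-0.98). The number higher at an unadjusted p of 0.05 was 6. It was 2 after quantile normalization and in the study's normalized values, 3 with normexp, with the percentile over detected probes and with no filter on dim probes, 1 with cyclic loess and by the methods' t-test, 0 with slide row as a block and 2 to 5 with an array left out (2 without NEXN-S437E replicate 2 or 3, 3 without NEXN-WT replicate 1 or 2). The number lower was 1, 2 by the methods' t-test (Acta1 and the leading Tpm2 probe), 3 with array weights (Acta1 and both Tpm2 probes) and 0 with slide row as a block. Actc1 reversed to -0.18 with quantile normalization and -0.17 in the study's normalized values and with cyclic loess. Tnni1 reversed to -0.070 with the percentile over detected probes, -0.0065 with cyclic loess and -0.48 with slide row as a block, was 0.39 and past the unadjusted threshold with array weights, and ran from -0.16 to 0.30 with an array left out. Lmod2 reversed to 0.094 with normexp and ran from -0.21 to 0.12 with an array left out. The leading probes of Acta1, Tpm1, Tpm2, Tnnt2, Tnni3, Tnnc1 and Tmod1 and the 4 paralog differences kept their sign under every alternative run. Taking the percentile over detected probes shifted the median of all probes by -0.11. The methods' t-test called 1.79% of all tested probes at 2-fold and an unadjusted p of 0.05, and 0 after adjustment. Same-numbered arrays did not deviate together (correlations -0.15, -0.03 and -0.18). Such correlations cannot show whether the numbers pair the animals by litter or handling, which the labels do not state. With the replicate block the counts stayed at 0, 1, 6 and 1, and Acta1 at -1.28 (limma adjusted p = 0.226). The cause of these shifts was not tested.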
